A study of Mus musculus with 8 samples.

Results

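The macrophage genes examined were scavenger and endocytic receptors, together with the secreted factor Cd5l. The receptors were Msr1, Marco, Colec12, Cd36, Scarb1, Mrc1, Stab1, Cd163 and Folr2. They were taken by gene symbol from a table of gene expression, which held all 10 of them among 54532 genes. RNA came from 8 samples of mouse BMDMs (bone marrow-derived macrophages), which are cells grown in culture from marrow progenitors. There were 2 libraries in each of 4 groups. KO_M1 denotes BMDMs of mice labelled ELF1 KO (knockout) with the M1 label, WT_M1 denotes wild-type BMDMs with the M1 label, and KO_con and WT_con denote the same genotypes without stimulus. The M1 label was read as 6 h of lipopolysaccharide (LPS), a cell wall molecule of Gram-negative bacteria that macrophages sense, because LPS is the stimulus that the study's design names. The labels give no strain, sex or age of the mice and no detail of the knockout allele. They also do not say whether both libraries of a group were separate cultures or mice. The p-values therefore reflect library-to-library spread, which may be technical.

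Scavenger receptors are surface proteins with which macrophages bind and take up modified lipoproteins, microbes, dying cells and spent host proteins. Msr1 (scavenger receptor A), Marco and Colec12 are class A receptors with a collagen-like stalk, while Cd36 and Scarb1 are class B receptors that span the membrane at both ends and carry lipids. Mrc1 (the mannose receptor CD206), Stab1 (stabilin 1), Cd163 (the receptor for haemoglobin bound to haptoglobin) and Folr2 (folate receptor beta) are commonly used as markers of resident or anti-inflammatory macrophages. Cd5l encodes AIM, a secreted protein of macrophages that shares the cysteine-rich scavenger receptor fold with Cd163 and Marco.

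All 10 are annotated as protein-coding genes, and the deposited table places the class A receptors Msr1 at chr8:39581685-39642673 (-), Marco at chr1:120474538-120505024 (-) and Colec12 at chr18:9707648-9877995 (+) of mm10, with the strand in brackets. The class B receptors lie with Cd36 at chr5:17781690-17888801 (-) and Scarb1 at chr5:125277087-125341094 (-). The others lie with Mrc1 at chr2:14229392-14332057 (+), Stab1 at chr14:31139013-31168641 (-), Cd163 at chr6:124304656-124330527 (+), Cd5l at chr3:87357881-87371073 (+) and Folr2 at chr7:101839988-101857194 (-).

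The values are FPKM, a read count per kilobase of gene that is scaled by a library size set by the authors, so levels can be compared between genes. Whole reads rebuilt from these values summed to 15753259 to 17133646 per library with LPS and 17297543 to 18058974 without it. Differences are given as log2(FPKM + 1) ± SE from limma with all 8 libraries in 1 model, and passing means an adjusted p below 0.05. The scale understates the change of genes near or below 1 FPKM, and for those the ratio of mean FPKM is also given. Elf1, an ETS-family transcription factor and the gene named in the knockout label, was read at 16.5 and 17.9 FPKM in KO_M1, 21.9 and 22.4 in WT_M1, 16.9 and 16.1 in KO_con and 12.4 and 14.1 in WT_con. Its total level therefore does not show the knockout, and a direction for the KO label is one between libraries that carry that label and libraries labelled WT. The markers listed for macrophages were read at 1 FPKM or more in each group, 8 of 8, with a summed level of 7162 to 7810 FPKM in KO_M1, 6432 to 6461 in WT_M1, 9861 to 10397 in KO_con and 8909 to 9006 in WT_con. Of 8 lymphocyte markers 0 reached 1 FPKM in any library, and the neutrophil list summed to 14.4 to 20.2 FPKM with LPS and 7.43 to 11.8 without it.

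Of the 10 genes, 7 were at 1 FPKM or more in all 8 libraries. The other 3 entered the test through some groups alone: Marco through the LPS libraries, Cd163 through 3 of the KO-labelled ones and Folr2 through the WT ones. Their calls are partly fixed by that entry, and counts are given with and without them. The fewest reads behind a value were 11 to 72 per library for Folr2, 12 to 956 for Marco, 31 to 303 for Cd163, 90 to 1465 for Colec12 and 108 to 1116 for Cd5l, and the most were 13114 to 69130 for Stab1.

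**Figure D1:**
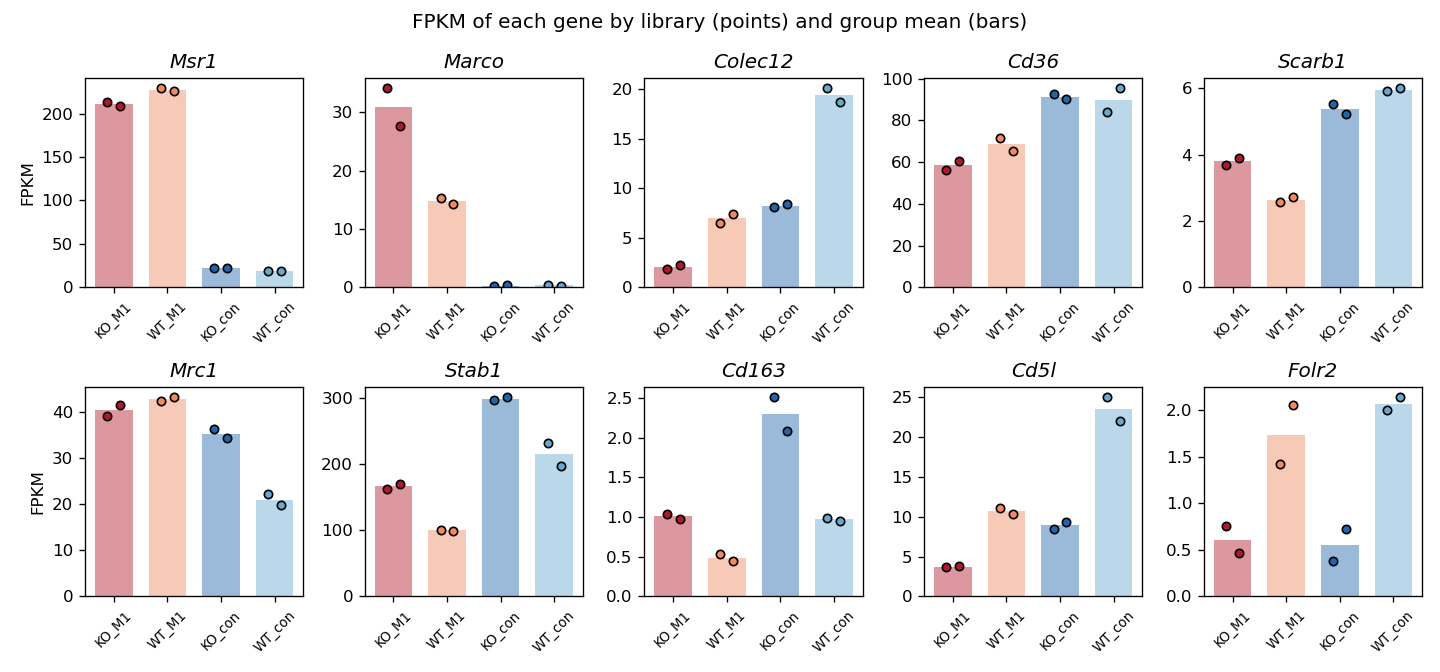
FPKM (y axis, from 0) of the 10 genes in KO_M1, WT_M1, KO_con and WT_con, with a point for each library and a bar for the mean of 2 libraries. Msr1 stands at 209 to 229 FPKM in the LPS libraries and at 18.4 to 21.9 in those without LPS, while Cd5l is lowest in KO_M1 (3.64 and 3.80) and highest in WT_con (25.0 and 22.1).

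The first question was what 6 h of LPS goes with in each genotype. The receptors split: the class A receptors Msr1 and Marco rose steeply in both genotypes, and Cd5l, Colec12, Stab1, Scarb1, Cd36 and Cd163 fell in both. Mrc1 rose in WT, while in KO-labelled cells its small change depended on the scaling. In KO-labelled cells 9 of 10 genes passed, 3 higher and 6 lower, where 65.9% of the 11887 genes tested passed, 34.7% higher and 31.2% lower. In WT 9 of 10 passed, 3 higher and 6 lower, against 71.5% of all genes, 37.7% higher and 33.9% lower. Under TPM, total-read and quantile scaling the KO-labelled count was 2 higher and 7 lower, since Mrc1 changed sides. Among the 7 genes at 1 FPKM or more everywhere, 2 rose and 5 fell in each genotype, with a median change of -0.63 in KO-labelled cells and -0.93 in WT. The median of all genes was 0.02 and 0.04. Most of all genes tested also passed with LPS, so the share among these 10 is not read as a result. What follows concerns sizes and directions. Scaling to TPM or to total reads moved the median of all genes to -0.42 and -0.37 in KO-labelled cells and to -0.51 and -0.48 in WT, and quantile normalization moved it to -0.11 and -0.13.

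Msr1, which binds modified lipoproteins and bacterial surface molecules, was read at 214 and 209 FPKM in KO_M1 and 21.9 and 21.8 in KO_con. In WT_M1 it was read at 229 and 226, against 18.4 and 18.8 in WT_con. The LPS libraries stood far above the others in both genotypes. Msr1 rose by 3.21 ± 0.04 (adjusted p = 4.14e-09) in KO-labelled cells and by 3.54 ± 0.04 (adjusted p = 2.15e-09) in WT, or 9.66-fold and 12.2-fold by mean FPKM. With LPS it was the most abundant of the 10 genes, at a mean of 211 ± 3.36 FPKM in KO_M1 and 228 ± 1.92 in WT_M1 (SD, n = 2 each). In WT it stood at rank 295 among 11887 genes by size of rise.

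Marco, a receptor for unopsonized bacteria and particles, was read at 34.1 and 27.7 FPKM in KO_M1, against 0.282 and 0.350 in KO_con. It was read at 15.3 and 14.3 in WT_M1, against 0.450 and 0.287 in WT_con. It was near the bottom of the 10 genes without LPS and well expressed with it. Marco rose by 4.59 ± 0.11 (adjusted p = 7.36e-08) in KO-labelled cells and by 3.53 ± 0.11 (adjusted p = 2.07e-07) in WT. By mean FPKM these were 97.9-fold and 40.3-fold, with 12 to 19 reads per library behind the values without LPS. With a pseudocount of 5 the rises were 2.75 and 1.88.

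Colec12, a class A receptor with a collectin domain at its tip, went the other way from its relatives. It was read at 1.86 and 2.23 FPKM in KO_M1, against 8.13 and 8.40 in KO_con. In WT_M1 it was read at 6.50 and 7.46, against 20.1 and 18.8 in WT_con. The 4 groups did not overlap. It fell by 1.61 ± 0.09 (adjusted p = 4.27e-06) in KO-labelled cells and by 1.36 ± 0.09 (adjusted p = 8.48e-06) in WT with LPS. A pseudocount of 5 gave -0.91 in KO-labelled cells, and voom on the rebuilt reads, a limma fit that weights counts, gave -2.49 and -2.11. Stromal cells also express Colec12. The 8 stromal markers summed to 7.43 to 8.25 FPKM in KO_M1, 8.64 to 16.3 in WT_M1, 0.702 to 3.13 in KO_con and 3.15 to 12.6 in WT_con, where 3 of the 8 reached 1 FPKM in any library. With LPS much of the sum was Pdgfrb, at 6.68 and 7.001 FPKM in KO_M1 and 6.22 and 7.07 in WT_M1. Col1a1 was read at 0.470 and 0.664 FPKM in KO_M1, 1.47 and 6.15 in WT_M1, 0.310 and 2.06 in KO_con and 6.85 and 2.12 in WT_con. Col1a2 was read at 0.105 and 0.194 FPKM in KO_M1, 0.507 and 2.07 in WT_M1, 0.167 and 0.679 in KO_con and 3.41 and 0.566 in WT_con. Both collagen genes were lower in KO_M1 than in WT_M1, as Colec12 was, while for Pdgfrb these groups overlapped. The WT_M1 libraries lay further apart for both collagen genes than for Colec12. Without LPS the genotypes did not overlap for Col1a1, Col3a1 or Dcn, each lower in KO_con, as was Colec12. They overlapped for Col1a2, Pdgfra, Pdgfrb and Cxcl12. With LPS Col3a1, Dcn and Pdgfra were also lower in KO_M1 without overlap, while Cxcl12 overlapped. Col3a1 and Dcn were low, at no more than 0.497 and 0.297 FPKM in any library. The part of stromal cells in the Colec12 values was not tested.

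Cd36, a class B receptor for oxidized lipoprotein and long-chain fatty acids, was read at 56.2 and 60.7 FPKM in KO_M1, against 92.4 and 90.0 in KO_con. In WT_M1 it was read at 71.6 and 65.4, against 84.1 and 95.3 in WT_con. Each LPS library was below each library without LPS of its genotype, by a modest margin. Cd36 fell by 0.63 ± 0.08 (adjusted p = 2.88e-04) in KO-labelled cells and by 0.38 ± 0.08 (adjusted p = 0.00321) in WT. Under TPM, total-read and quantile scaling the falls were larger, at -1.10 to -1.43 in KO-labelled cells and -0.99 to -1.31 in WT. Less the median of all genes they were -0.65 as deposited and -0.69 to -1.33 with those scalings in KO-labelled cells, and -0.42 and -0.48 to -1.18 in WT.

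Scarb1, the class B receptor that exchanges cholesterol with high-density lipoprotein, was read at 3.70 and 3.88 FPKM in KO_M1, against 5.52 and 5.21 in KO_con. It was read at 2.57 and 2.72 in WT_M1, against 5.90 and 5.99 in WT_con. The groups again did not overlap. It fell by 0.41 ± 0.06 (adjusted p = 9.55e-04) in KO-labelled cells and by 0.93 ± 0.06 (adjusted p = 1.01e-05) in WT. The size varied with the processing, with values of -0.24 to -0.98 in KO-labelled cells and -0.52 to -1.81 in WT between a pseudocount of 5 and voom.

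Mrc1, the mannose receptor, was read at 39.1 and 41.5 FPKM in KO_M1, 36.2 and 34.3 in KO_con, 42.4 and 43.1 in WT_M1 and 22.2 and 19.8 in WT_con. WT_con was the one group that stood well below the rest. LPS raised Mrc1 in WT by 1.00 ± 0.07 (adjusted p = 9.17e-06), which became 0.39 to 0.42 under TPM, total-read and quantile scaling and kept its call. In KO-labelled cells the change was 0.19 ± 0.07 (adjusted p = 0.0382). That call ended without KO_con 1 (0.23), KO_con 2 (0.15), KO_M1 2 (0.14), WT_M1 1 or WT_M1 2 (0.19 each), at adjusted p = 0.0617 to 0.18. Under TPM, total-read and quantile scaling the sign turned, to -0.28, -0.28 and -0.38 (adjusted p = 0.00173 to 0.0149). Less the median of all genes these were 0.14, 0.10 and -0.27, against 0.17 as deposited, so no direction of the LPS change of Mrc1 in KO-labelled cells is given.

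Stab1, which clears altered albumin, matrix fragments and other ligands from the cell's surroundings, was the most abundant of the 10 genes without LPS. It was read at 163 and 171 FPKM in KO_M1, against 297 and 302 in KO_con. In WT_M1 it was read at 101 and 98.8, against 233 and 198 in WT_con. All 4 groups were apart. Stab1 fell by 0.84 ± 0.07 (adjusted p = 5.83e-05) in KO-labelled cells and by 1.09 ± 0.07 (adjusted p = 1.17e-05) in WT. Quantile normalization gave -1.73 and -2.10. Stab1, Scarb1 and Cd36 are also genes of endothelial cells. Of 8 endothelial markers 3 (Kdr, Vwf and Cdh5) reached 1 FPKM, Tek had 0 to 3 reads and Tie1 0 to 4 reads per library. The list summed to 15.3 to 16.4 FPKM in KO_M1, 36.6 to 38.0 in WT_M1, 20.7 to 21.0 in KO_con and 26.5 to 28.7 in WT_con, nearly all of it Kdr and Vwf. Its members did not move alike. Kdr was read at 9.68 and 10.503 FPKM in KO_M1, 29.7 and 31.4 in WT_M1, 9.43 and 9.92 in KO_con and 14.5 and 14.1 in WT_con. Cdh5 was higher with LPS, unlike Stab1, at 0.784 and 0.959 FPKM in KO_M1 and 1.17 and 1.09 in WT_M1. It was read at 0.161 and 0.288 in KO_con and 0.130 and 0.131 in WT_con. Vwf was lower with LPS, like Stab1, at 4.72 and 4.73 FPKM in KO_M1, 5.54 and 5.28 in WT_M1, 10.6 and 10.2 in KO_con and 13.6 and 11.8 in WT_con. Stab2 was also lower with LPS, at 0.0392 to 0.0619 FPKM, against 0.344 to 0.459 without it. The part of endothelial cells in the Stab1, Scarb1 and Cd36 values was not tested.

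Cd163, the scavenger of haemoglobin and haptoglobin, was low. It was read at 1.04 and 0.976 FPKM in KO_M1, against 2.51 and 2.09 in KO_con, and at 0.536 and 0.440 in WT_M1, against 0.985 and 0.951 in WT_con. By mean FPKM the LPS libraries held 0.440 of the level without LPS in KO-labelled cells and 0.504 in WT. It fell by 0.71 ± 0.11 (adjusted p = 8.41e-04) in KO-labelled cells and by 0.40 ± 0.11 (adjusted p = 0.0112) in WT. A pseudocount of 0.1 gave -1.11 and -0.87, and one of 5 gave -0.28 and -0.12.

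Cd5l was read at 3.64 and 3.80 FPKM in KO_M1, against 8.52 and 9.30 in KO_con, and at 11.1 and 10.4 in WT_M1, against 25.0 and 22.1 in WT_con. With LPS the KO-labelled cells held 0.417 and WT 0.456 of the level without it, by mean FPKM. Cd5l fell by 1.07 ± 0.08 (adjusted p = 1.90e-05) in KO-labelled cells and by 1.06 ± 0.08 (adjusted p = 1.63e-05) in WT. TPM scaling gave -1.65 and -1.70. Folr2 was read at 0.755 and 0.463 FPKM in KO_M1, against 0.380 and 0.726 in KO_con, and at 1.42 and 2.05 in WT_M1, against 2.01 and 2.14 in WT_con. Its groups with and without LPS overlapped in both genotypes. Mean FPKM with LPS was 1.10 of that without it in KO-labelled cells and 0.838 in WT. The LPS change of Folr2 did not pass, at 0.05 ± 0.17 (adjusted p = 0.801) in KO-labelled cells and -0.18 ± 0.17 (adjusted p = 0.384) in WT. In WT it did pass under TPM and total-read scaling and with voom, at -0.58 to -0.91 (adjusted p = 0.0107 to 0.0453).

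**Figure D2:**
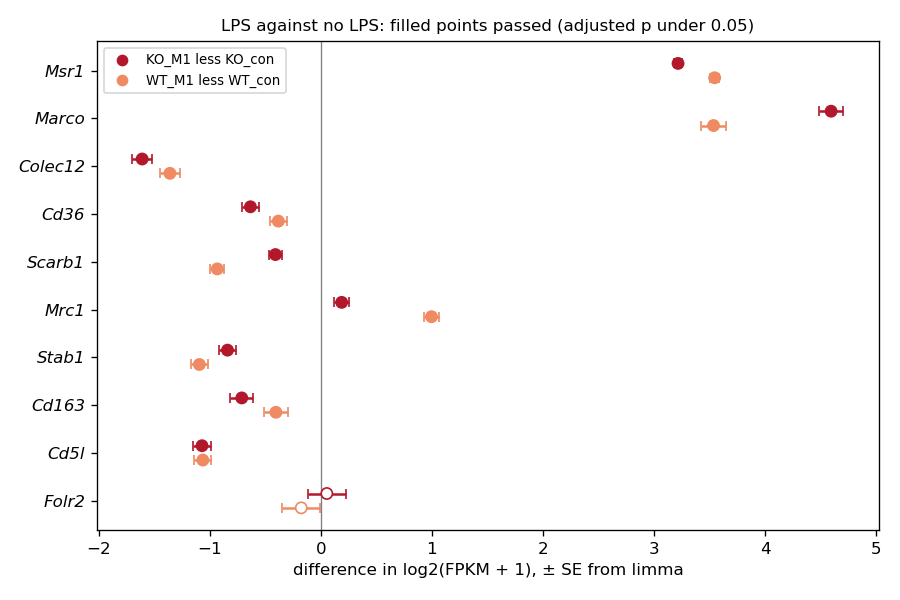
LPS change of the 10 genes as a difference in log2(FPKM + 1), x axis, ± SE from limma, in KO-labelled cells (KO_M1 less KO_con) and in WT (WT_M1 less WT_con). Msr1 (3.21 and 3.54) and Marco (4.59 and 3.53) lie far to the right, Colec12 furthest to the left (-1.61 and -1.36), and open points did not pass.

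The second question was how cells labelled KO differ from WT. Cd5l, Colec12 and Folr2 were lower in KO-labelled cells both with and without LPS, while Stab1 and Cd163 were higher in both. Marco and Scarb1 were higher in KO-labelled cells with LPS, and Mrc1 was higher without LPS. With LPS 7 of 10 genes passed, 4 higher and 3 lower, where 28.9% of all genes tested passed, 10.8% higher and 18.1% lower. Without LPS 7 of 10 passed as well, 4 higher and 3 lower, where 5.64% of all genes passed, 1.72% higher and 3.92% lower. Of the 7 genes at 1 FPKM or more everywhere, 4 passed with LPS (2 higher, 2 lower) and 5 without it (3 higher, 2 lower). Their median difference was -0.11 with LPS and 0.03 without it, where the medians of all genes were -0.02 and -0.0024, since rises and falls offset each other. The count without LPS fell to 2, Cd5l and Colec12, when the model held the 4 libraries compared alone. It was 3 without KO_con 1 or KO_con 2, 4 without WT_con 1 and 5 without WT_con 2.

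Cd5l differed most steadily. It was 3.72 ± 0.113 FPKM in KO_M1, against 10.7 ± 0.489 in WT_M1, and 8.91 ± 0.553 in KO_con, against 23.5 ± 2.08 in WT_con (SD, n = 2 each). KO-labelled cells thus held 0.347 of the WT level with LPS and 0.379 without it. The fall was 1.31 ± 0.08 with LPS (adjusted p = 1.18e-04) and 1.31 ± 0.08 without LPS (adjusted p = 7.13e-04). It ranked 91 with LPS and 28 without LPS among 11887 genes ordered from the largest fall. Both calls held under all 22 alternatives, and a pseudocount of 5 gave -0.85 with LPS. In these bulk samples fewer cells that express a gene and less RNA per cell cannot be told apart.

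Colec12 followed Cd5l. It was 2.04 ± 0.263 FPKM in KO_M1, against 6.98 ± 0.678 in WT_M1, and 8.27 ± 0.192 in KO_con, against 19.4 ± 0.955 in WT_con. The fall was 1.39 ± 0.09 with LPS (adjusted p = 1.45e-04), at rank 72 among falls, and 1.14 ± 0.09 without LPS (adjusted p = 0.00169), at rank 43. Both calls held under all 22 alternatives, with -0.77 at a pseudocount of 5 with LPS. Folr2 was 0.609 ± 0.206 FPKM in KO_M1, against 1.74 ± 0.448 in WT_M1, and 0.553 ± 0.245 in KO_con, against 2.07 ± 0.0953 in WT_con. Its groups did not overlap between genotypes. It fell by 0.76 ± 0.17 with LPS (adjusted p = 0.0165) and by 0.99 ± 0.17 without LPS (adjusted p = 0.0237), which are ratios of 0.350 and 0.267 by mean FPKM. Few reads were behind this. The call without LPS ended without WT_con 1 (-1.03), WT_con 2 (-0.96), KO_con 1 (-0.83) or KO_con 2 (-1.16), at adjusted p = 0.0683 to 0.142, and in the model of the libraries compared alone (adjusted p = 0.0843). The call with LPS ended without WT_M1 2 (-0.60) or KO_M1 2 (-0.63), at adjusted p = 0.0807 to 0.088, and both ended without a filter on low values (adjusted p = 0.0744 without LPS and 0.0562 with it). A pseudocount of 0.1 gave -1.38 with LPS and -1.79 without it. An annotated antisense gene, Gm10602, overlaps Folr2 by 2784 bases and had 3 to 37 reads per library, and whether counting used the strand is not stated. Folr1, which encodes folate receptor alpha, had 1 to 23 reads.

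Stab1 was higher in KO-labelled cells. It averaged 167 ± 5.70 FPKM in KO_M1, against 100.02 ± 1.78 in WT_M1, and 299 ± 3.13 in KO_con, against 215 ± 24.5 in WT_con. The rise was 0.73 ± 0.07 with LPS (adjusted p = 7.08e-04), a call that held under all 22 alternatives, and 0.48 ± 0.07 without LPS (adjusted p = 0.0172). The call without LPS ended without KO_con 1 (0.49) or KO_con 2 (0.47), at adjusted p = 0.108 to 0.121, without a filter on low values (adjusted p = 0.0559) and with the libraries compared alone (adjusted p = 0.119). Nt5dc2, on the other strand, overlaps Stab1 by 112 bases and had 271 to 1558 reads, against 13114 to 69130 for Stab1. Cd163 was 1.01 ± 0.0472 FPKM in KO_M1, against 0.488 ± 0.0684 in WT_M1, and 2.30 ± 0.296 in KO_con, against 0.968 ± 0.0243 in WT_con. That is 2.07-fold higher with LPS and 2.37-fold higher without it by mean FPKM. On the log2 scale it rose by 0.43 ± 0.11 with LPS (adjusted p = 0.0226) and by 0.74 ± 0.11 without LPS (adjusted p = 0.0125), and by 0.92 and 1.16 with a pseudocount of 0.1. The call without LPS ended when WT_con 1 (0.75), WT_con 2 (0.73), KO_con 1 (0.65) or KO_con 2 (0.83) was left out, at adjusted p = 0.0501 to 0.104, and with the libraries compared alone (adjusted p = 0.0792). The call with LPS ended without WT_M1 2 (0.39), KO_M1 1 (0.41) or KO_M1 2 (0.46), at adjusted p = 0.0632 to 0.0927, and without a filter (adjusted p = 0.0596).

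Mrc1 was higher in KO_con, at 35.2 ± 1.34 FPKM, than in WT_con, at 21.0 ± 1.69. With LPS the genotypes lay close, at 40.3 ± 1.76 in KO_M1 and 42.8 ± 0.486 in WT_M1. The rise without LPS was 0.72 ± 0.07 (adjusted p = 0.00276), and its call ended with the libraries compared alone (adjusted p = 0.0642). With LPS the difference was -0.08 ± 0.07 (adjusted p = 0.382), and it was 0.11 to 0.13 under TPM, total-read and quantile scaling. Marco averaged 30.9 ± 4.52 FPKM in KO_M1, against 14.8 ± 0.711 in WT_M1, and rose by 1.00 ± 0.11 (adjusted p = 9.93e-04), or 2.08-fold, at rank 81 among rises. Without LPS its difference was -0.05 ± 0.11 (adjusted p = 0.834), a ratio of 0.857 by mean FPKM, and the libraries overlapped. Scarb1 averaged 3.79 ± 0.133 FPKM in KO_M1, against 2.64 ± 0.105 in WT_M1, and rose by 0.40 ± 0.06 (adjusted p = 0.00407). Its difference without LPS was -0.13 ± 0.06 (adjusted p = 0.293). The calls of Marco and Scarb1 with LPS held under all 22 alternatives, with 0.20 to 0.74 for Scarb1 between a pseudocount of 5 and voom.

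Cd36 and Msr1 differed little between the genotypes. For Cd36 the difference was -0.22 ± 0.08 with LPS (adjusted p = 0.0686) and 0.03 ± 0.08 without LPS (adjusted p = 0.89). With LPS it passed without WT_con 1 or WT_con 2 (-0.22 each, adjusted p = 0.0426 to 0.0427), with the filter at 5 FPKM (-0.22, adjusted p = 0.0456) and with voom at median-of-ratios library sizes (-0.21, adjusted p = 0.0270), and it was 0.02 under quantile normalization. Msr1 rose by 0.22 ± 0.04 without LPS (adjusted p = 0.0225), at 21.9 ± 0.0650 FPKM in KO_con, against 18.6 ± 0.333 in WT_con. That call ended without WT_con 1 (0.20), KO_con 1, KO_con 2, WT_M1 1 or WT_M1 2 (0.22 each), at adjusted p = 0.0556 to 0.153, and with the libraries compared alone (adjusted p = 0.104). With LPS Msr1 was at -0.11 ± 0.04 (adjusted p = 0.0738), and its sign turned, to 0.10 with TPM, 0.11 with total-read and 0.17 with quantile scaling. The median of all genes moved with them, to 0.15 with TPM, 0.14 with total-read and 0.02 with quantile scaling, against -0.02 as deposited.

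**Figure D3:**
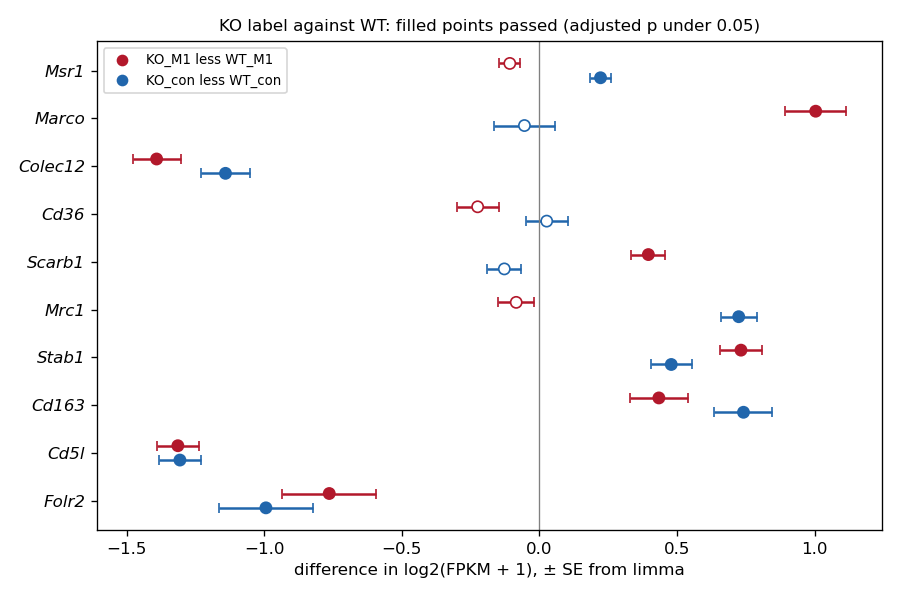
KO label against WT for the 10 genes as a difference in log2(FPKM + 1), x axis, ± SE from limma, with LPS (KO_M1 less WT_M1) and without LPS (KO_con less WT_con). Cd5l, Colec12 and Folr2 lie left of 0 in both comparisons, Stab1 and Cd163 right of 0 in both, and open points did not pass.

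**Figure D4:**
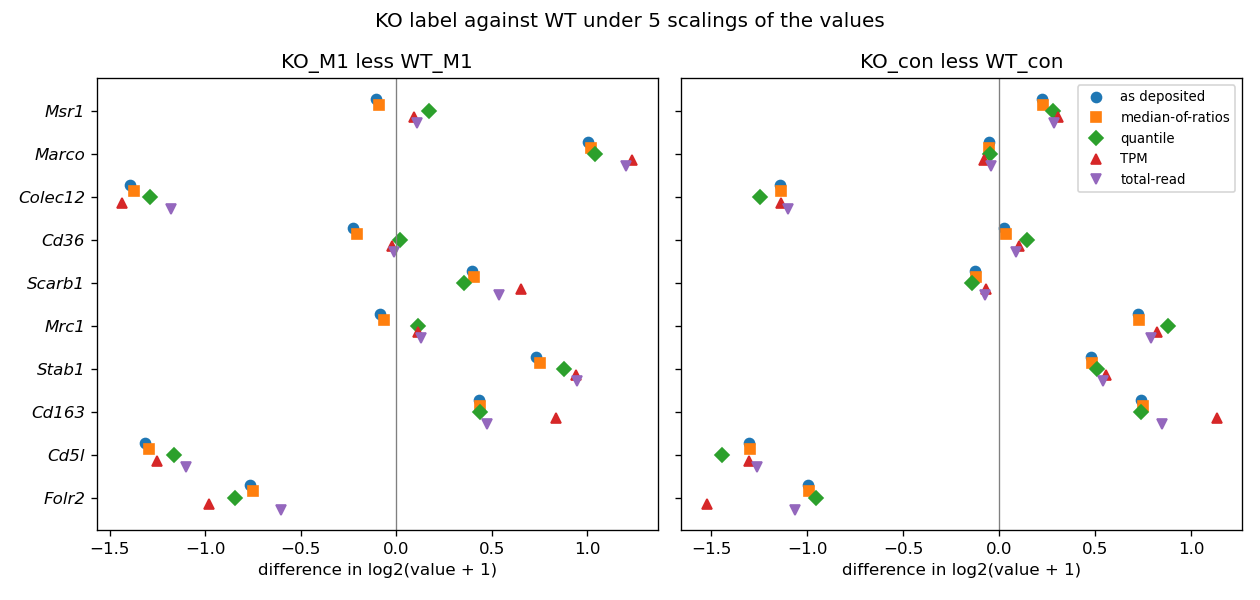
The same differences under 5 scalings (symbols), with LPS on the left and without LPS on the right, x axis in log2(value + 1). Msr1, Mrc1 and Cd36 change sign between scalings with LPS (-0.11 to 0.17, -0.08 to 0.13 and -0.22 to 0.02). Cd5l, Colec12, Stab1, Cd163, Marco and Scarb1 keep their side of 0.

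The third question was whether the LPS change itself differed between KO-labelled and WT cells. It did for 4 of 10 genes, where 16.0% of all genes passed this interaction, 5.64% higher and 10.3% lower. Of the 7 genes at 1 FPKM or more everywhere 3 passed, 1 higher and 2 lower. Marco gained 1.06 ± 0.16 more in KO-labelled cells (adjusted p = 0.00669), and Scarb1 fell less there, by 0.52 ± 0.09 (adjusted p = 0.0101). The LPS change of Mrc1 was 0.81 ± 0.09 smaller in KO-labelled cells, an interaction of -0.81 (adjusted p = 0.00295), and that of Msr1 had an interaction of -0.33 ± 0.05 (adjusted p = 0.00871). The Marco call ended with voom at 1.25 and 1.39 (adjusted p = 0.163 and 0.115), the Scarb1 call without KO_con 2 at 0.49 (adjusted p = 0.0532), and the Msr1 call under TPM, total-read and quantile scaling and with voom, at -0.11 to -0.21 (adjusted p = 0.0592 to 0.258). The Mrc1 call held under all 21 alternatives. For Cd5l the interaction was -0.01 ± 0.11 (adjusted p = 0.976). Those of Colec12 (-0.25 ± 0.12), Cd36 (-0.25 ± 0.11), Cd163 (-0.31 ± 0.15), Folr2 (0.23 ± 0.24) and Stab1 (0.25 ± 0.11) did not pass either, and Stab1 did pass without WT_con 2 at 0.37 (adjusted p = 0.0169) and under total-read scaling (0.41, adjusted p = 0.0357) and voom (0.27 and 0.41).

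The promoters of 5 genes whose level differed with the KO label are shown because Elf1 belongs to the ETS family, whose members bind DNA around the letters GGAA. Each window runs from 250 bases before to 50 bases after the start site in RefSeq (GRCm38.p6), 5′ to 3′ on the strand of the gene, with GGAA on either strand (TTCC as printed) in capitals.
Cd5l, chr3:87357631-87357930, + strand: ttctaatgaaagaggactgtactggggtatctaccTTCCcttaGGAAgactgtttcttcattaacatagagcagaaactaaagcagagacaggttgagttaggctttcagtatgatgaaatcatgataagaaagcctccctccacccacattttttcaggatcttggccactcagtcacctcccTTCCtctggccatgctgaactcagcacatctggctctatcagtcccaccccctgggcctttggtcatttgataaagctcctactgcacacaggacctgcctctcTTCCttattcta
Marco, chr1:120504975-120505274, - strand: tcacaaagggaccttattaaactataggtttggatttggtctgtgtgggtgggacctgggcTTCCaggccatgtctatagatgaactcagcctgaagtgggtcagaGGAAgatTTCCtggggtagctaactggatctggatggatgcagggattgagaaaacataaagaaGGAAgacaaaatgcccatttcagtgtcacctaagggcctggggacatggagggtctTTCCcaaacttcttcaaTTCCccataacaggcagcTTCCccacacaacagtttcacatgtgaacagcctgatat
Mrc1, chr2:14229164-14229463, + strand: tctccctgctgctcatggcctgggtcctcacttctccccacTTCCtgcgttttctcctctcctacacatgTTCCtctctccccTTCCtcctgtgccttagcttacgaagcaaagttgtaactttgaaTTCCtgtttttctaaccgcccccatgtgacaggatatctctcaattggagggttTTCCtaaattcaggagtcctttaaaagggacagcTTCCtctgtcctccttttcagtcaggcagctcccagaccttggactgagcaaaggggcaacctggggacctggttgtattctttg
Stab1, chr14:31168592-31168891, - strand: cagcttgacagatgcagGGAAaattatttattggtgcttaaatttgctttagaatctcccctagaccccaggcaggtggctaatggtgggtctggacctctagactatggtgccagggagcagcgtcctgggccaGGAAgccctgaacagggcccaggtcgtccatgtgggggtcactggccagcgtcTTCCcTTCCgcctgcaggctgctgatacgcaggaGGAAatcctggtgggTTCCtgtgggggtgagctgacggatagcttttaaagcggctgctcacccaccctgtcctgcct
Cd163, chr6:124304401-124304700, + strand: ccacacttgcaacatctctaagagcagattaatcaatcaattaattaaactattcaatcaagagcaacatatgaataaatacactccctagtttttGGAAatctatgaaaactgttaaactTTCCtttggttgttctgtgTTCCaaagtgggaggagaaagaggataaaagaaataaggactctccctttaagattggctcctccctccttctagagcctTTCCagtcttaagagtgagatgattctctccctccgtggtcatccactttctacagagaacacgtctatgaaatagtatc
RefSeq windows were examined for 7 of the 10 genes (these 5, Cd36 and Folr2). Those of Msr1, Scarb1 and Colec12 were not examined, so no count of GGAA is given for them. GGAA on either strand was found 4 times in the windows of Cd5l and Cd163, 5 times in that of Folr2, 6 times in those of Mrc1, Stab1 and Cd36 and 7 times in that of Marco. Cd36, which did not pass for the KO label, held as many as Mrc1 and Stab1. Its start site in RefSeq lies 52905 bases from the 5′ end of the deposited gene, however, against at most 22 bases for the others. Of 32851 windows of 300 bases, 96.0% held GGAA, 46.3% held it at least 4 times, 28.6% at least 5 times, 15.7% at least 6 times and 8.02% at least 7 times. The letters GAGGAA, which contain GGAA and were also searched on both strands, were found once in the windows of Cd5l, Marco and Stab1 and 3 times in that of Mrc1, and 28.3% of all windows held them. The letters CCGGAA, held by 14.9% of all windows, were not found in these 7. A match describes letters in a window and says nothing of binding.

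Genes with the most similar pattern over the 8 libraries were sought by Euclidean distance between mean-centred log2(FPKM + 1) profiles, among 5927 genes with a mean of at least 5 FPKM. The nearest gene to both Colec12 and Cd5l was Mfge8 (distances 0.872 and 0.802), which encodes a secreted protein that bridges dying cells to phagocytes. Mfge8 was read at 28.1 and 29.5 FPKM in KO_M1, 45.9 and 44.1 in WT_M1, 60.4 and 59.1 in KO_con and 121 and 129 in WT_con. Colec12 and Cd5l were closer to each other (0.655) than to it, and the next nearest were Tmem51 (1.04) for Colec12 and Man2b2 (0.832) for Cd5l. Nearest to Marco were the neutrophil chemokine Cxcl3 (0.718) and the cystine transporter Slc7a11 (0.819), and nearest to Cd163 were the growth factor Igf1 (0.327) and the chemokine Ccl6 (0.347). Msr1 was nearest to Rcl1 (0.160) and Rapgef2 (0.282), Mrc1 to Slc30a4 (0.400) and Srsf4 (0.440), and Stab1 to Adss (0.362) and Ltbp3 (0.368). Cd36 was nearest to Tram1 (0.0953) and Ppt1 (0.132), Scarb1 to Prkcb (0.172), and Folr2 to Pbxip1 (0.576) and Nt5c (0.583). Within the 10 genes, Stab1 and Cd163 lay 0.737 apart and Msr1 and Marco 1.52.

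The counts of each list below stand against these shares of all genes tested, as deposited. With LPS 34.7% rose and 31.2% fell in KO-labelled cells, and 37.7% rose and 33.9% fell in WT. For the KO label 10.8% were higher and 18.1% lower with LPS, and 1.72% and 3.92% without it. Counts under other scalings stand against other shares. Of all calls for the KO label with LPS, 37.4% were higher as deposited, 73.2% with TPM, 75.1% with total-read and 53.6% with quantile scaling. For the KO label without LPS these were 30.6% as deposited and 54.8% with TPM. For LPS they were 52.7% in KO-labelled cells and 52.6% in WT as deposited, and 42.0% and 41.8% with quantile normalization. Other receptors for scavenging or endocytosis were taken from a list of 20, of which 9 were tested. With LPS 6 rose and 3 fell in KO-labelled cells, and 6 rose and 3 fell in WT. The rises were led by Olr1, a receptor for oxidized lipoprotein (2.65 ± 0.09 in KO-labelled cells and 2.82 ± 0.09 in WT), and the endocytic receptor Ly75 (2.44 ± 0.09 and 2.17 ± 0.09), and the largest fall was in Lrp1 (-0.91 ± 0.09 and -1.51 ± 0.09), which takes up many ligands. The median was 1.93 and 1.71, and 1.11 and 0.58 under quantile normalization. With the KO label 4 of 9 passed with LPS and 3 of 9 without it, each lower, led by the secreted scavenger-domain protein Lgals3bp (-0.43 ± 0.05 with LPS and -0.90 ± 0.05 without). The direction of the calls with LPS did not hold under total-read scaling (2 higher and 1 lower) or quantile normalization (2 passed, both higher), and under TPM 1 of 14 passed, lower. Less the median of all genes, the median of this list stayed negative. It was -0.17 as deposited, -0.16 with TPM, -0.12 with total-read and -0.06 with quantile scaling.

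Of 15 regulators of scavenger receptor genes 14 were tested. In KO-labelled cells 6 rose and 8 fell with LPS, and in WT 6 rose and 7 fell, with medians of -0.48 and -0.25. Pparg, the nuclear receptor known to raise Cd36, changed by -2.17 ± 0.09 and -2.26 ± 0.09, and Nr1h3 (LXR alpha), known to raise Cd5l, rose by 1.73 ± 0.05 and 0.93 ± 0.05. With the KO label 3 rose and 6 fell with LPS, while 3 of 14 passed without LPS, each lower: Nr1h3 (-0.51 ± 0.05), Pparg (-0.47 ± 0.09) and the ETS factor Spi1 (-0.19 ± 0.04). With LPS Nr1h3 was 0.29 ± 0.05 higher in KO-labelled cells, opposite in sign to its difference without LPS. The part of Nr1h3 in the Cd5l values was not tested. The largest fall with LPS was that of Spic (-0.66), a transcription factor of red pulp macrophages in the spleen. Maf, a transcription factor of macrophages, was at -0.45 ± 0.06 with LPS and 0.20 ± 0.06 without it, where it did not pass. Under TPM and total-read scaling the KO label counts with LPS became 6 higher and 3 lower of 15, and 7 higher and 5 lower of 14, and under quantile normalization 5 higher and 4 lower.

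Among 10 tested of 13 partners of Cd163 and Folr2 in heme, iron and folate handling, 5 rose and 5 fell with LPS in KO-labelled cells, and 3 rose and 6 fell in WT. With LPS 4 of 10 were higher with the KO label, where 10.8% of all genes were, led by the heme transporter Slc48a1 (0.86 ± 0.06) and heme oxygenase Hmox1 (0.68 ± 0.05). Of 18 tested genes that handle scavenged lipid, 4 rose and 12 fell with LPS in KO-labelled cells, and 7 rose and 11 fell in WT, where 3 rose and 14 fell under quantile normalization. With the KO label 4 rose and 7 fell with LPS, the largest fall in the sterol exporter Abcg1 (-0.68 ± 0.08), and 2 of 18 passed without LPS, both lower (Abcg1 at -0.42 ± 0.08 and Npc2 at -0.34 ± 0.07). Under TPM, total-read and quantile scaling the counts with LPS were 7 higher and 4 lower. Of 15 signalling and uptake partners of Cd36, 9 rose and 6 fell with LPS in KO-labelled cells, and 8 rose and 6 fell in WT. Quantile normalization gave 7 higher and 7 lower in KO-labelled cells and 6 higher and 7 lower in WT. With the KO label 2 rose and 7 fell with LPS, led by the fall of the phagocytic receptor Mertk (-0.84 ± 0.07), and 1 rose and 3 fell without LPS. Under TPM these were 3 higher and 4 lower with LPS, and without LPS 2 passed, both higher.

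Cd163, Mrc1, Stab1 and Folr2 are read as markers of resident or alternatively activated macrophages, so lists of such genes were set beside them. Of 14 tested of 20 resident macrophage genes, 3 rose and 7 fell with LPS in KO-labelled cells, and 5 rose and 7 fell in WT. With the KO label 3 rose and 3 fell with LPS, and 5 rose and 1 fell without LPS. The rises without LPS were led by F13a1 (2.33 ± 0.06), Hpgd (1.38 ± 0.11) and Pf4 (1.12 ± 0.14), and Siglec1 fell by 0.47 ± 0.09. Of 8 tested of 13 genes of alternative activation, 4 rose and 2 fell with LPS in KO-labelled cells, and 5 rose and 1 fell in WT. With the KO label 3 rose and 2 fell with LPS, and 2 rose and 1 fell without LPS, where the lectin Mgl2 rose by 1.59 ± 0.14 and Clec10a by 0.59 ± 0.09. With LPS the chemokine Ccl22 (1.44 ± 0.12), Mgl2 (1.18 ± 0.14) and arginase Arg1 (0.76 ± 0.11) were higher in KO-labelled cells. Under TPM or total-read scaling 6 genes of the resident list passed for the KO label with LPS, each higher, and under quantile normalization 7 were higher and 1 lower. For the alternative activation list 3 passed there under each of these scalings, each higher. Most calls over all genes were also higher under them. Less the median of all genes, the resident list median was -0.02 as deposited, 0.02 with TPM, 0.002 with total-read and 0.07 with quantile scaling. That of the alternative activation list was -0.05, -0.08, -0.04 and -0.02. Among markers of other cells, the dendritic cell list summed to 1.496 to 1.84 FPKM in KO_M1, 2.05 to 2.13 in WT_M1, 0.942 to 1.05 in KO_con and 0.439 to 0.653 in WT_con. The list for mast cells, basophils and megakaryocytes summed to 2.87 to 4.65 over the 8 libraries.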

How the data were processed

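RNA from 8 libraries was analysed. The authors deposited 1 table of FPKM, with gene length and positions in bases as other columns, and the submitters' processing notes name mm10 and DESeq2 without a version or role. Which aligner, counter and annotation were used is not given in the sources used here. Dividing FPKM times gene length by the smallest step of its library gave whole numbers, within 0.001, for 100% of values, and these were taken as reads. The implied library size divided by the rebuilt total was 0.914 to 0.925 in KO_M1, 0.784 to 0.797 in WT_M1, 1.28 in KO_con and 1.21 to 1.23 in WT_con. For counting error alone, a gene without reads could have up to 3, which is 0.166 to 0.190 CPM.

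The 11887 genes that reached 1 FPKM in 2 or more libraries were tested on log2(FPKM + 1) with limma-trend 3.58.1 in R 4.3.3, with 4 group means in 1 model, a residual of 4 degrees of freedom and 2.74 more from the prior. P-values are two-sided, with Benjamini-Hochberg adjustment over all tested genes in each of 5 comparisons. Alternatives were pseudocounts of 0.1 and 5, no filter or one at 5 FPKM, scaling by TPM, total-read, median-of-ratios or quantile, no trend, robust moderation, a replicate block, the libraries compared alone, each library left out and voom. Voom with median-of-ratios library sizes was added after the data were seen. With a library left out, the lone sample of its group is assumed to vary like the other groups. The procedure was tested on simulated data.

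The genes and lists were chosen with earlier results of these data known. The named genes are the 10 genes, Elf1, the largest changes that passed in each of 7 pathway lists, and the 2 nearest genes by profile without predicted or clone names. For 1 of the 10 genes the next nearest is not reported here. Kdr, Vwf, Cdh5, Tek, Tie1, Stab2, Pdgfrb, Pdgfra, Col1a1, Col1a2, Col3a1, Dcn, Cxcl12, Folr1, Gm10602 and Nt5dc2 were named after their values were seen. Marker lists of 7 cell types were described without a test.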

Additional observations from a re-analysis of the deposited data

Results flagged for a closer look

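The LPS change differed between KO-labelled and WT cells, by the interaction term of limma, for 4 of the 10 genes, where 16.0% of all genes passed. Without Marco, Cd163 and Folr2, which were under 1 FPKM in some libraries, it did for 3 of 7. For Marco it was 1.06 (adjusted p = 0.00669), with a rise of 4.59 in KO-labelled cells and 3.53 in WT. For Scarb1 it was 0.52 (adjusted p = 0.0101), with -0.41 in KO-labelled cells and -0.93 in WT. For Mrc1 it was -0.81 (adjusted p = 0.00295), with 0.19 in KO-labelled cells and 1.00 in WT. The 0.19 has no settled direction, since TPM scaling turned it to -0.28 and quantile normalization to -0.38. For Msr1 it was -0.33 (adjusted p = 0.00871), with 3.21 in KO-labelled cells and 3.54 in WT. Mrc1 alone kept its interaction call in each of the 21 alternatives. The Msr1 term shrank to -0.21 with TPM, -0.18 with total-read, -0.11 with quantile scaling and -0.19 with voom on rebuilt reads. It passed in none of these. Neither voom fit passed Marco, at sizes of 1.39 and 1.25. The Scarb1 term was 0.49 with KO_con 2 left out.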

How the results depend on the processing

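Of 50 log2 changes (10 genes in 5 comparisons), 36 passed. Of all genes tested, 5.64% to 71.5% passed, depending on the comparison. Of the 36 changes, 25 kept their call and direction under every alternative that tested them, and 11 lost the call under some alternative. There were 22 alternatives for most comparisons and 21 for the interaction. An FPKM minimum of 5 left Cd163 and Folr2 untested. Without LPS, the count of genes that passed for the KO label, 7 of the 10, was 2 with the libraries compared alone and 3 to 7 with a library left out. Over all genes that count was 671, and it was 406 with a replicate block, 51 with the libraries compared alone, 1900 with voom, 1672 with voom at median-of-ratios library sizes and 137 to 536 with a library left out. With a library left out the counts were 2114 to 3455 for the KO label with LPS (3438 with all libraries) and 963 to 1739 for the interaction (1900 with all). Calls higher were 37.4% of those for the KO label with LPS, but 73.2% with TPM, 75.1% with total-read and 53.6% with quantile scaling. For the KO label without LPS they were 30.6%, and 54.8%, 52.0% and 42.0% with these. For LPS they were 52.7% in KO-labelled cells and 52.6% in WT, and 25.3 to 42.0% under these, and for the interaction 35.3% and 51.8 to 63.8%.

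These changes turned sign. The LPS change of Mrc1 in KO-labelled cells became -0.28 (TPM), -0.28 (total-read), -0.38 (quantile) and -0.29 (voom). That of Folr2 became -0.21 (TPM), -0.12 (total-read), -0.31 (voom) and -0.11 to 0.22 with a library left out. For the KO label with LPS, Mrc1 became 0.12, 0.13, 0.11 and 0.13 and Msr1 became 0.10, 0.11, 0.17 and 0.11 (TPM, total-read, quantile and voom), and Cd36 became 0.020 (quantile). Without LPS, Cd36 ranged from -0.063 to 0.12 and Marco from -0.14 to 0.032 with a library left out. The interaction of Cd5l, -0.01, became 0.18 (pseudocount 5), 0.047 (TPM), 0.16 (total-read), 0.0063 (median-of-ratios), 0.28 (quantile) and 0.029 (voom), and -0.094 to 0.079 with a library left out. That of Colec12 became 0.12 with a pseudocount of 5. The cause was not tested.

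The replicate numbers were not treated as pairs: deviations of libraries with the same number correlated at -0.08 to 0.03 between groups. The replicate block ended the calls of Msr1 without LPS at 0.22 and of Mrc1 for LPS in KO-labelled cells at 0.19 (adjusted p = 0.0542 and 0.0544), and of the 10 genes 6 rather than 7 and 8 rather than 9 then passed; it changed no other call of the 10 genes. With 11 to 72 reads per library, differences of Folr2 are limited by depth.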
